A study of Mus musculus with 2 samples.

Results

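Pou5f1, Nanog, Utf1, L1td1, Lin28a, Sall4, Dppa2 and Dppa4 are genes known for their activity in pluripotent cells, and their nuclear RNA and chromatin accessibility were followed through the tissues of gastrulating mouse embryos. They were found by gene symbol, giving 8 of the 32285 genes measured, and every accessibility peak within 50 kb of a start of 1 of these genes was added, giving 171 of 229480 peaks. Embryos at embryonic day 7.0 were pooled, dissociated and taken to nuclei, and each nucleus gave both nuclear RNA and accessible chromatin, the DNA that a transposase can cut. RNA and accessibility formed the 2 groups and had 1 library apiece, made from that 1 pool, so the intervals below cover counting error only and no test between samples was possible. The strain entry of both libraries was RedMUC298trTg, and the labels named no treatment.

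The labels did not all point to embryos. The title and age named E7.0, while the tissue and cell type entries named gut regions and goblet cells. The 7 goblet and intestinal genes checked summed to between 0 and 2.36 CPM (counts scaled to 1000000 per class) in the named classes of nuclei clustered from accessibility (up to 3.92 CPM in those from RNA, in parietal endoderm-like nuclei), while 6 epiblast genes (Fgf5, Sox2, Dnmt3b, Otx2, Slc7a3 and Pim2) summed to 2637 CPM in epiblast-like nuclei, 875 CPM in extraembryonic ectoderm-like nuclei and 597 CPM in visceral endoderm-like nuclei. Visceral endoderm markers summed to 15183 CPM in their own class and 889 CPM in epiblast-like nuclei, and extraembryonic ectoderm markers to 759 and 42.1 CPM. Some names were less clean: parietal endoderm-like nuclei held 8777 CPM of visceral endoderm markers beside 4827 CPM of their own, and streak markers summed to 535 CPM in streak-like and 688 CPM in embryonic mesoderm-like nuclei. Extraembryonic ectoderm-like nuclei held 2261 CPM of visceral endoderm markers. Anterior ectoderm markers summed to 523 CPM there and to 423 CPM in epiblast-like nuclei. The part of this in the results was not tested. The deposited matrix held 182201512 RNA molecules (UMIs) and 273131304 peak counts over 15341 barcodes, all of them shared by both assays, and 12796 nuclei were kept, with medians of 10471 UMIs and 17350 peak counts.

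As background, POU5F1 (OCT4), NANOG and their partner SOX2 bind together at enhancers of pluripotent cells. The pluripotent state passes from a naive form in the blastocyst to a formative and then a primed form in the epiblast, the tissue that builds the embryo proper. At gastrulation epiblast cells move through the primitive streak and become mesoderm and definitive endoderm. UTF1 is a chromatin-bound protein, L1TD1 an RNA-binding protein derived from a LINE-1 element, LIN28A an RNA-binding protein that blocks maturation of let-7 microRNAs, SALL4 a zinc finger factor, and DPPA2 and DPPA4 are DNA-binding partners whose genes are neighbours. Visceral endoderm, parietal endoderm and extraembryonic ectoderm are the extraembryonic tissues that lie beside or above the epiblast.

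So that a gene did not define the nuclei in which it was read, RNA was read in classes clustered from accessibility without the 171 peaks, and accessibility was read in classes clustered from RNA without the 8 genes. Classes were named from fixed marker genes other than these 8, and "-like" marks such a name. By accessibility there were 3096 epiblast-like nuclei, 1073 primitive streak-like, 994 like anterior streak, node and definitive endoderm, 1155 embryonic mesoderm-like, 368 haemato-endothelial progenitor-like, 1640 visceral endoderm-like, 336 parietal endoderm-like, 1181 extraembryonic ectoderm-like and 2953 unnamed nuclei. By RNA the epiblast-like class held 3178 nuclei, the streak-like class 532, the embryonic mesoderm-like class 1470, the visceral endoderm-like class 1681 and the extraembryonic ectoderm-like class 1552. Of 8269 nuclei named by both assays, 7354 (88.9%) had the same name. The streak-like class was the least shared of the 5 compared: of its 1073 nuclei by accessibility, 36.0% were streak-like, 29.6% epiblast-like and 29.0% unnamed by RNA.

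On GRCm38.p6, RefSeq places Pou5f1 (ENSMUSG00000024406) at chr17:35506032-35510777, Nanog (ENSMUSG00000012396) at chr6:122707489-122714633 and Utf1 (ENSMUSG00000047751) at chr7:139943856-139945112. L1td1 (ENSMUSG00000087166) lies at chr4:98726754-98738486 and Lin28a (ENSMUSG00000050966) on the minus strand at chr4:134003330-134019196. Sall4 (ENSMUSG00000027547) lies on the minus strand at chr2:168748332-168767201. Dppa4 (ENSMUSG00000058550) at chr16:48283735-48294292 and Dppa2 (ENSMUSG00000072419) at chr16:48310274-48319513 are neighbours.

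The sequences upstream of Pou5f1, Nanog and Utf1 are shown because, of the members with a promoter entry, these were the ones whose promoter accessibility followed their RNA most closely, as given further on. They come from RefSeq on GRCm38.p6, which held promoter entries for 5 of the 8 genes, are written 5′ to 3′ on the gene's strand (plus for all of them) and end just before the start given in the files or the RefSeq start, whichever comes first. Both strands were searched, matches may overlap, and capitals mark matches to a joined SOX and OCT site (CATTGT and ATGCAAA with 1 base between), GGGCGG (a GC box) or AGGTCA (the core of nuclear receptor sites).
Pou5f1, chr17:35505782-35506017: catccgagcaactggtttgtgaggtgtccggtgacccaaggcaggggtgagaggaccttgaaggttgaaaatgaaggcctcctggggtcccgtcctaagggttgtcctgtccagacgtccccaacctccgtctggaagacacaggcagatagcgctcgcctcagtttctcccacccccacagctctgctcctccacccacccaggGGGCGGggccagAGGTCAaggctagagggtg
Nanog, chr6:122707239-122707488: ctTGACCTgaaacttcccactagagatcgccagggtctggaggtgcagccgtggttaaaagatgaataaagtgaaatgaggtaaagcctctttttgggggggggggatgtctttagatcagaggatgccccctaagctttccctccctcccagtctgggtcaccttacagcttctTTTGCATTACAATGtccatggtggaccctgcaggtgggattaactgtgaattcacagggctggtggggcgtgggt
Utf1, chr7:139943606-139943788: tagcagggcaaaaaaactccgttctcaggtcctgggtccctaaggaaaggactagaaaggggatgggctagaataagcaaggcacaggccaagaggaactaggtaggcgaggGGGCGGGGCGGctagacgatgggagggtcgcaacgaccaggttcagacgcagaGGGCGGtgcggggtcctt
The joined SOX and OCT letters lay 75 to 62 bases before the RefSeq start of Nanog, on the reverse strand. In 250-base windows upstream of all 32817 RefSeq promoters those letters were found in 2 windows (0.00609%) which overlap each other and are both of Nanog, where this site is already known. The GC box was found in 32.7% and AGGTCA in 14.0% of all windows, and the plain octamer ATGCAAAT, found in 1.6%, was in none of the windows searched for these genes. A match is a description of the letters and not of a factor bound there.

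Of the core factors, Pou5f1 RNA was highest in the epiblast and the streak. Its level was 201 CPM in epiblast-like nuclei and 195 CPM in streak-like nuclei, 137 CPM in anterior streak-like, 120 CPM in embryonic mesoderm-like and 63.5 CPM in haemato-endothelial progenitor-like nuclei. The extraembryonic classes were nearly level with each other, at 44.2 CPM in visceral endoderm-like, 41.3 CPM in parietal endoderm-like and 44.8 CPM in extraembryonic ectoderm-like nuclei. The epiblast-like level was 4.55-fold the visceral endoderm-like one (95% interval 4.25 to 4.87) and 4.49-fold the extraembryonic ectoderm-like one (4.16 to 4.85). Epiblast-like and streak-like levels did not differ beyond counting error (ratio 1.03, 0.987 to 1.08), nor did the 3 extraembryonic neighbours in the order. The 4 epiblast-like clusters ran from 187 to 217 CPM, above every other named class except the streak-like one.

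The share of nuclei with a Pou5f1 UMI, after thinning each nucleus to 5000 UMIs, was 62.5% (60.7 to 64.2) in the epiblast-like and 58.5% (55.5 to 61.6) in the streak-like class. It was 18.8% (16.9 to 20.9) in visceral endoderm-like, 18.3% (14.3 to 22.9) in parietal endoderm-like and 21.4% (19.0 to 24.0) in extraembryonic ectoderm-like nuclei. These are tissues in which little of the gene is known to remain by this stage. How much of this level is background was not tested. Without thinning the shares were 81.6% in the epiblast-like class, at a median depth of 10278.5 UMIs, and 43.4% in the extraembryonic ectoderm-like class, at a median of 12586 UMIs. The haemato-endothelial progenitor-like share was 25.5% (20.9 to 30.6).

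Nanog RNA had its highest level in the streak and not in the epiblast. It reached 87.4 CPM in streak-like nuclei, against 34.8 CPM in epiblast-like, 34.7 CPM in anterior streak-like and 28.1 CPM in embryonic mesoderm-like nuclei. The streak-like level was 2.51-fold the epiblast-like one (2.31 to 2.73), and it also lay above the highest of the 4 epiblast-like clusters, which ran from 26.4 to 47.8 CPM. In the remaining classes Nanog was at 5.07 to 8.10 CPM, and those neighbours did not differ beyond counting error. A Nanog UMI was found in 33.3% (30.5 to 36.3) of thinned streak-like nuclei, 13.8% (12.5 to 15.1) of epiblast-like nuclei and 3.25% (2.27 to 4.49) of extraembryonic ectoderm-like nuclei. In classes made from RNA the streak-like level was 85.6 CPM and the epiblast-like level 32.5 CPM. Epiblast-like over visceral endoderm-like RNA was 5.47-fold (4.59 to 6.57), a log2 ratio of 2.45 that was 1.48 when doublet calls (droplets marked as holding more than 1 nucleus) were kept. Over extraembryonic ectoderm-like RNA it was 6.51-fold (5.24 to 8.19), a log2 ratio of 2.70 that was 1.96 with them.

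Across the 17 accessibility clusters the Pou5f1 and Nanog levels followed each other with a Pearson r of 0.944 on log2(CPM + 1), a description over clusters that share their library. Within a class the share of nuclei with a Pou5f1 UMI was close with and without a Nanog UMI. Of the 405 thinned epiblast-like nuclei with a Nanog UMI 62.7% (57.8 to 67.4) had a Pou5f1 UMI, and of the 2539 without one 62.4% (60.5 to 64.3) did. In streak-like nuclei the shares were 59.3% of 344 and 58.1% of 688.

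Utf1 and L1td1 were high in 2 tissues that lie side by side, the epiblast and the extraembryonic ectoderm. Utf1 was at 211 CPM in epiblast-like and 279 CPM in extraembryonic ectoderm-like nuclei, where its ratio of extraembryonic ectoderm-like over epiblast-like was 1.32 (1.27 to 1.37). It lay at 95.2 CPM in the streak-like class, 82.7 CPM in the anterior streak-like class and 41.7 to 59.1 CPM in the others. Utf1 was the only member called higher in epiblast-like than in streak-like nuclei, by 2.22-fold (2.09 to 2.36), and its epiblast-like level was 4.53-fold that of embryonic mesoderm-like nuclei (4.17 to 4.94).

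L1td1 was at 222 CPM in epiblast-like and 210 CPM in extraembryonic ectoderm-like nuclei, a ratio of 1.06 (1.02 to 1.10). It was at 156 CPM in streak-like, 90.8 CPM in anterior streak-like and 62.7 CPM in embryonic mesoderm-like nuclei, the lowest of the named classes. Its visceral and parietal endoderm-like levels were 82.2 and 96.0 CPM. The Utf1 and L1td1 levels had an r of 0.897 over the 17 clusters. An unnamed cluster of 409 nuclei led by Prl3d1, a placental lactogen gene, and Ascl2, a trophoblast factor, also had both, with Utf1 at 193 CPM and L1td1 at 146 CPM.

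Among the named classes, Lin28a and Sall4 had their highest levels outside the epiblast, in different tissues. An unnamed cluster, described below, was high in both, at 226 and 400 CPM. Lin28a was highest in visceral endoderm-like nuclei, at 188 CPM, and parietal endoderm-like nuclei, at 149 CPM, against 118 CPM in epiblast-like, 114 CPM in anterior streak, node and definitive endoderm-like and 80.5 CPM in haemato-endothelial progenitor-like nuclei. The visceral endoderm-like level was 1.60-fold the epiblast-like one (1.53 to 1.67), which is close to the 1.5-fold line and was under it when doublet calls were kept (log2 ratio of epiblast-like over visceral endoderm-like -0.56, against -0.68). The highest cluster, at 226 CPM, was an unnamed one of 465 nuclei with Sfrp5 and Gckr among its leading genes and markers of both visceral endoderm and anterior streak. The clusters of the epiblast-like class ran only from 112 to 122 CPM.

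Sall4 was highest in the embryonic mesoderm-like class, at 419 CPM, followed by 337 CPM in anterior streak-like, 283 CPM in epiblast-like and 276 CPM in streak-like nuclei. It was at 230 CPM in parietal endoderm-like, 203 CPM in visceral endoderm-like, 161 CPM in haemato-endothelial progenitor-like and 149 CPM in extraembryonic ectoderm-like nuclei. The mesoderm-like level was 1.48-fold the epiblast-like one (1.43 to 1.53), just under the call line, and the epiblast-like level was 1.91-fold the extraembryonic ectoderm-like one (1.82 to 1.99). The RefSeq gene of Sall4 overlaps Gm14261, and whether the counting used strand was not given in the sources used here, so reads of the 2 cannot be told apart.

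Dppa2 and Dppa4 were extraembryonic ectoderm genes in these nuclei and were nearly absent from the epiblast. Dppa4 was at 134 CPM in extraembryonic ectoderm-like nuclei and at 2.98 to 6.16 CPM in all other named classes, whose neighbours in the order did not differ beyond counting error. Its extraembryonic ectoderm-like level was 34.6-fold the epiblast-like one (29.1 to 41.5). A Dppa4 UMI was found in 45.7% (42.7 to 48.7) of thinned extraembryonic ectoderm-like nuclei and in 2.14% (1.65 to 2.73) of epiblast-like ones.

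Dppa2 was at 30.1 CPM in extraembryonic ectoderm-like nuclei, 21.1-fold the epiblast-like level of 1.43 CPM (15.7 to 28.8). It had a second, lower level in endoderm, with 4.35 CPM in visceral endoderm-like and 4.89 CPM in parietal endoderm-like nuclei. Dppa4 was also higher in parietal endoderm-like than in epiblast-like nuclei, by 1.60-fold (1.06 to 2.34). The visceral endoderm-like value came from 1 of the 2 clusters of that class: a cluster led by Aass, Bmp6 and Abcc2 was at 6.18 CPM and the other, in which Rasgrf2 and Ltk led, at 1.52 CPM. With accessibility clusters at resolution 0.5 the log2 ratio of epiblast-like over visceral endoderm-like was -0.58, against -1.61. In the cluster led by Prl3d1 Dppa4 was at 47.3 CPM and Dppa2 at 7.88 CPM. Among thinned extraembryonic ectoderm-like nuclei, 53.6% (45.0 to 62.0) of the 140 with a Dppa2 UMI had a Dppa4 UMI, and 44.5% (41.3 to 47.8) of the 937 without.

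**Figure D1:**
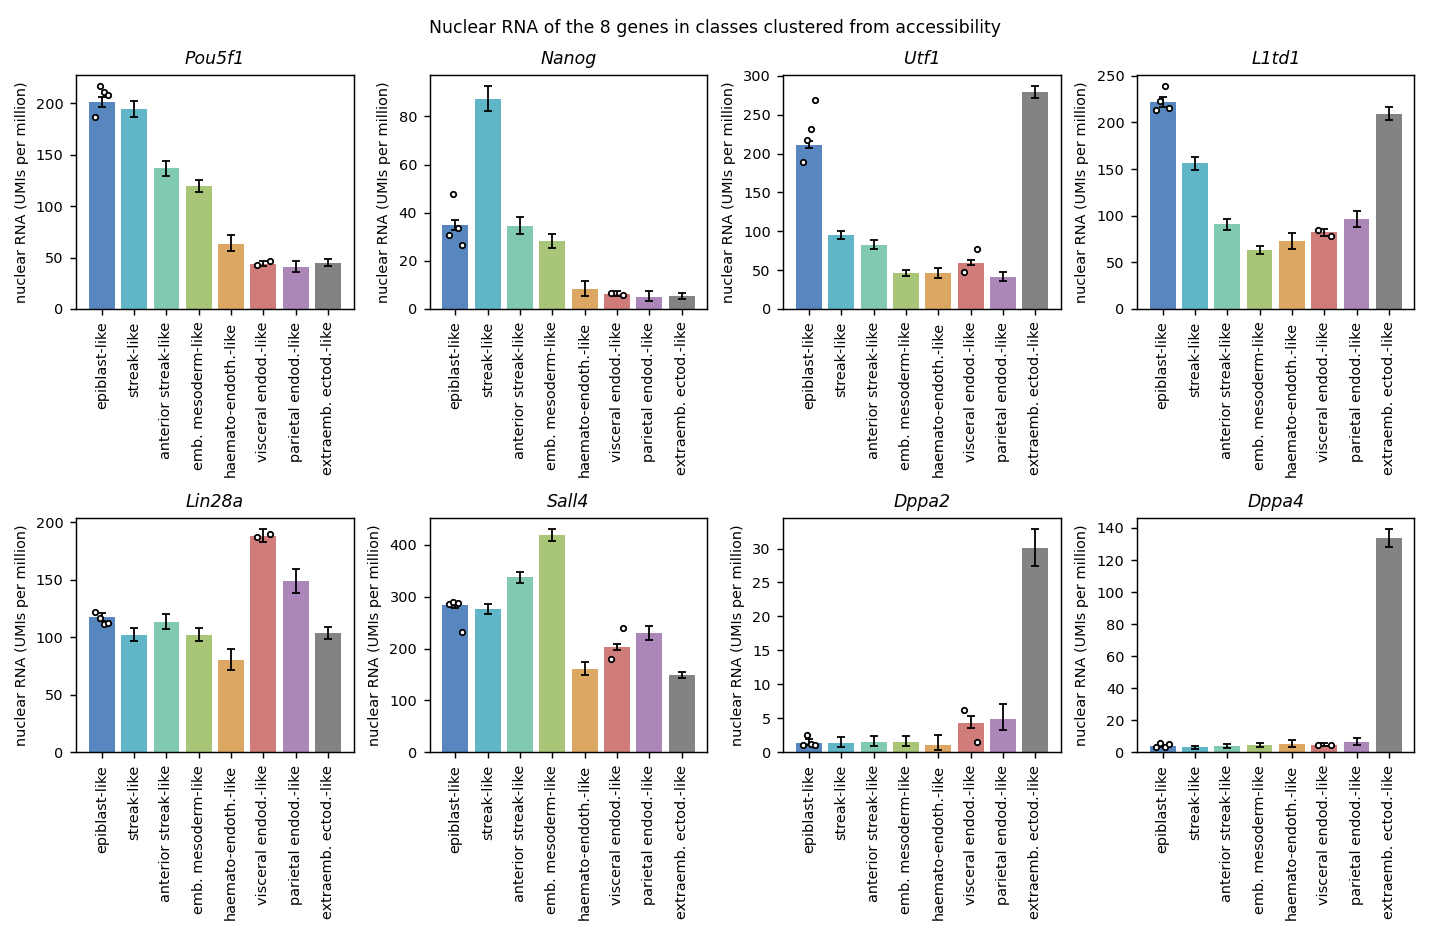
Nuclear RNA of the 8 genes (UMI counts in CPM, linear axis from 0) in the named classes clustered from accessibility. Bars are class levels with 95% counting intervals and open points are the clusters of a class that holds more than 1; Nanog is highest in the streak-like class at 87.4 CPM, Lin28a in the visceral endoderm-like class at 188 CPM, Sall4 in the embryonic mesoderm-like class at 419 CPM, and Dppa4 in the extraembryonic ectoderm-like class at 134 CPM.

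Counted together, the 8 genes did not form 1 pattern. A call was a ratio of CPM of at least 1.5, given for genes with at least 50 counts over both classes. Against visceral endoderm-like nuclei, 4 of 8 members were higher in epiblast-like nuclei (Pou5f1, Nanog, Utf1 and L1td1), where 31.9% of all genes were higher, and 2 were lower (Lin28a and Dppa2), where 22.7% were lower. Their median log2 ratio was 0.96, against 0.13 over all genes. Against extraembryonic ectoderm-like nuclei 3 were higher (Pou5f1, Nanog and Sall4; background 29.9%) and 2 lower (Dppa2 and Dppa4; background 19.3%), with a median of 0.13 against 0.07.

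Within the embryo proper fewer members were called either way, and the share of all genes called was lower too. Against streak-like nuclei 1 member was higher in the epiblast (Utf1; background 7.99%) and 1 lower (Nanog; background 4.8%). L1td1 lay at 1.42-fold (1.35 to 1.49) and was also called at accessibility resolution 2 and in classes made from RNA. Against embryonic mesoderm-like nuclei 3 were higher (Pou5f1, Utf1 and L1td1; background 16.9%) and none lower (background 11.8%). Nanog, at a log2 ratio of 0.31 over embryonic mesoderm-like nuclei, passed the line under 4 alternatives, with values of 0.62 to 0.81.

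Promoter accessibility separated the genes into those whose promoter followed the RNA and those whose promoter was open everywhere. A promoter was taken as the 1000 bp before a start and the first 100 bp after it, and its level is the CPM of the peaks that overlap it. The Pou5f1 promoter was at 73.9 CPM in epiblast-like and 65.9 CPM in streak-like nuclei, 29.8 CPM in anterior streak-like, 20.8 CPM in embryonic mesoderm-like, 18.8 CPM in haemato-endothelial progenitor-like and 12.1 CPM in extraembryonic mesoderm-like nuclei. It was lowest in endoderm and extraembryonic ectoderm, at 3.39 CPM in visceral endoderm-like, 1.48 CPM in parietal endoderm-like and 3.12 CPM in extraembryonic ectoderm-like nuclei.

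The epiblast-like level of the Pou5f1 promoter was 21.8-fold the visceral endoderm-like one (16.6 to 29.2) and 23.7-fold the extraembryonic ectoderm-like one (17.7 to 32.4). The promoter ratios kept their direction under the alternatives, but not their size. With doublet calls kept the log2 ratios were 2.13 and 2.87, against 4.45 and 4.57, and with 2000 bp to each side 3.53 and 1.65. With RNA clusters at resolution 1 the ratio over visceral endoderm-like nuclei was 3.37 on the log2 scale.

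The Nanog promoter was at 23.5 CPM in streak-like nuclei, 16.1 CPM in epiblast-like, 14.5 CPM in anterior streak-like and 11.6 CPM in embryonic mesoderm-like nuclei, the order of its RNA. It was at 1.66 CPM in visceral endoderm-like and 2.54 CPM in extraembryonic ectoderm-like nuclei. The streak-like level was 1.46-fold the epiblast-like one (1.20 to 1.77), short of the call line, and the epiblast-like level was 9.72-fold the visceral endoderm-like one (6.46 to 15.3). With doublet calls kept the log2 of that ratio was 1.81, against 3.28, and that over extraembryonic ectoderm-like nuclei 1.89, against 2.66. The Utf1 promoter was at 37.6 CPM in extraembryonic ectoderm-like, 29.5 CPM in epiblast-like, 22.2 CPM in streak-like and 13.3 CPM in visceral endoderm-like nuclei, in the order of the RNA for these classes. It was at 13.7 CPM in embryonic mesoderm-like nuclei, near the visceral endoderm-like level. Utf1 RNA was lower in embryonic mesoderm-like than in visceral endoderm-like nuclei, at 46.6 and 59.1 CPM.

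The promoters of L1td1, Lin28a and Sall4 were open in all classes. L1td1 was at 28.1 CPM in epiblast-like and 40.6 CPM in visceral endoderm-like nuclei, a ratio of 0.693 (0.626 to 0.769), while its RNA was 2.70-fold higher in the epiblast-like class (2.56 to 2.84). Sall4 was at 28.5 CPM in epiblast-like and 26.5 CPM in extraembryonic ectoderm-like nuclei (ratio 1.08, 0.953 to 1.22), while its RNA differed 1.91-fold. Lin28a ran from 27.4 to 50.7 CPM over the named classes and was highest in visceral endoderm-like nuclei, as was its RNA.

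The Dppa2 and Dppa4 promoters were open in extraembryonic ectoderm-like nuclei, at 25.9 and 6.48 CPM, against 1.17 and 0.280 CPM in epiblast-like nuclei. These were 22.1-fold (15.8 to 31.8) and 23.2-fold (12.1 to 49.8) differences. The starts listed for Dppa2 lie between chr16:48303908 and chr16:48310477, and each end of that range had its own peak. The upstream one, at chr16:48303395-48304288, was at 20.3 CPM in extraembryonic ectoderm-like and 1.002 CPM in visceral endoderm-like nuclei. The downstream one, at chr16:48309844-48310754 and over the RefSeq start, was at 5.59 and 6.74 CPM. Both peaks were thus open in extraembryonic ectoderm-like nuclei, and only the upstream one was far lower in visceral endoderm-like nuclei.

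Of the promoters with at least 50 counts, 3 of 7 were more accessible in epiblast-like than visceral endoderm-like nuclei (background 29.4%) and 1 less (background 11.4%). Against extraembryonic ectoderm-like nuclei 2 of 8 were more (background 27.7%) and 2 less accessible (background 9.56%). Of the latter, Dppa4 had 17 counts in epiblast-like and 168 in extraembryonic ectoderm-like nuclei. It reached 50 counts only through the class where it was high. Against streak-like nuclei 1 of 7 was more accessible (background 5.92%) and none less (background 3.54%), and that 1 was Dppa2 on 71 and 8 counts, with an interval of 0.651 to 5.39 that holds 1. At a 2-fold line no promoter was called there (background 2.56%). Against embryonic mesoderm-like nuclei 2 of 7 were more accessible, Pou5f1 and Utf1 (background 12.0%), and none less (background 5.98%).

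**Figure D2:**
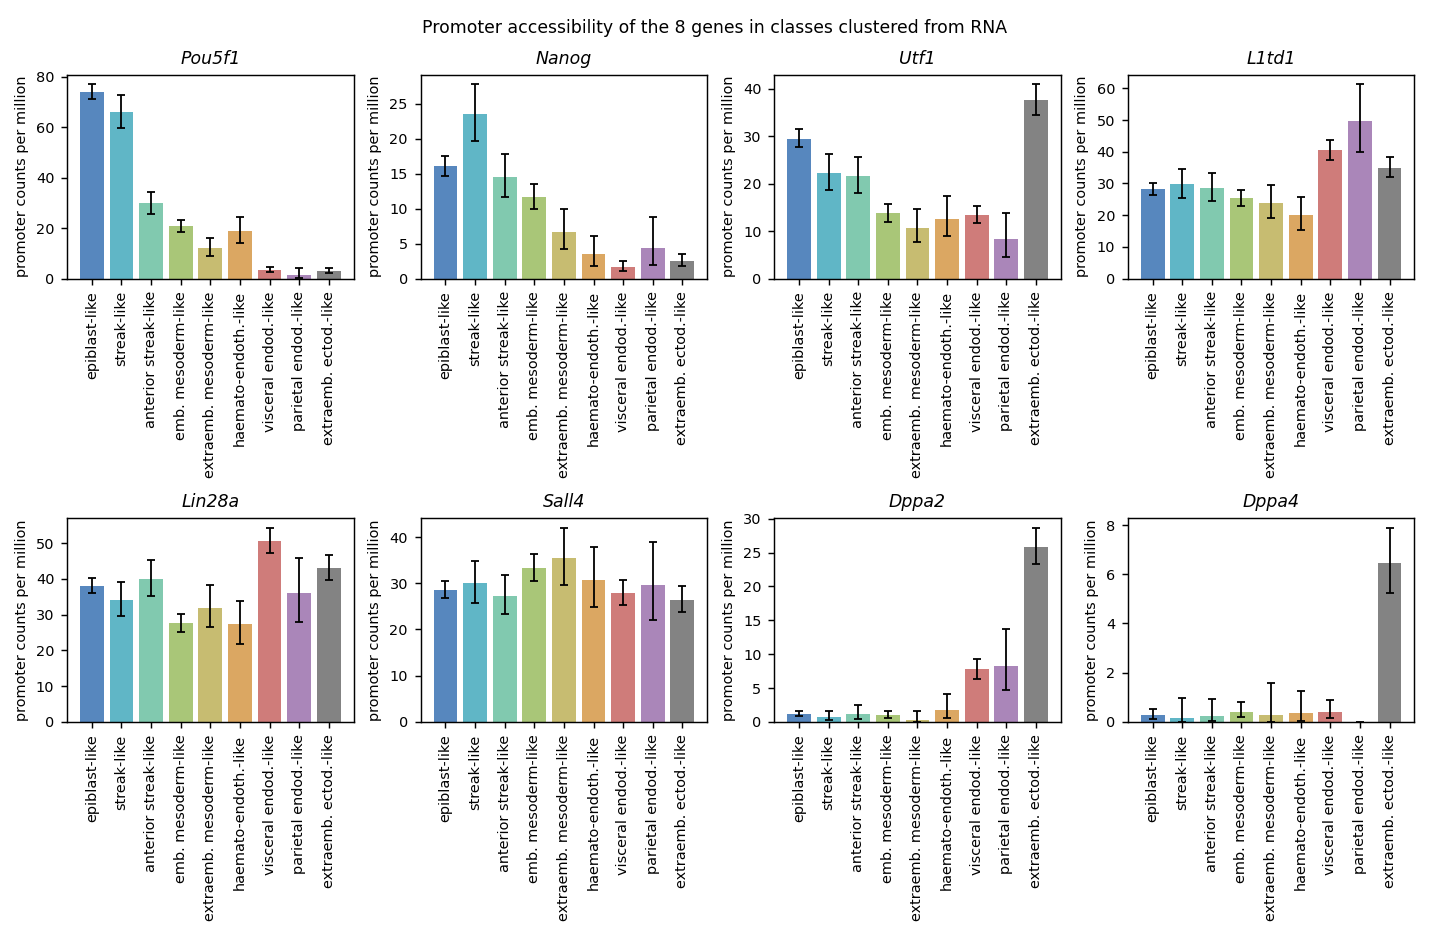
Promoter accessibility of the 8 genes (peak counts in CPM, linear axis from 0) in the named classes clustered from RNA, with 95% counting intervals from estimated fragments. Pou5f1 is at 73.9 CPM in epiblast-like and 3.12 CPM in extraembryonic ectoderm-like nuclei, L1td1, Lin28a and Sall4 are open throughout, and Dppa2 and Dppa4 stand out in extraembryonic ectoderm-like nuclei; Dppa4 had no count in parietal endoderm-like nuclei and has no interval there.

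Pou5f1 is known to have a proximal enhancer, used in the epiblast, and a distal enhancer, used in naive and germ cells, both upstream of its start. Peaks lay in that region 955 bp and 2146 bp before the start. The nearer peak, at chr17:35504618-35505508, is 1 of the 2 peaks of the promoter above and gave most of its counts. It was at 59.0 CPM in epiblast-like, 48.7 CPM in streak-like and 14.6 CPM in embryonic mesoderm-like nuclei. The farther peak, at chr17:35503510-35504235, was at 11.6, 12.5 and 5.13 CPM in the same classes. The enhancers were not mapped here, so the peaks are named by distance alone, and the nearer one overlaps the predicted RefSeq gene Gm32362.

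The nearer peak had 4.76 times the fragments of the farther one in epiblast-like nuclei (4.27 to 5.32) and 3.67 times in streak-like nuclei (2.85 to 4.77). The ratio was 2.64 (2.05 to 3.44) in embryonic mesoderm-like nuclei. In extraembryonic ectoderm-like nuclei the order was turned, with 30 fragments near and 63 far, a ratio of 0.476 (0.298 to 0.747). Another site in this class lay inside the gene: the peak 1262 bp after the start was at 13.8 CPM in extraembryonic ectoderm-like, 10.2 CPM in embryonic mesoderm-like and 1.79 CPM in epiblast-like nuclei.

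**Figure D3:**
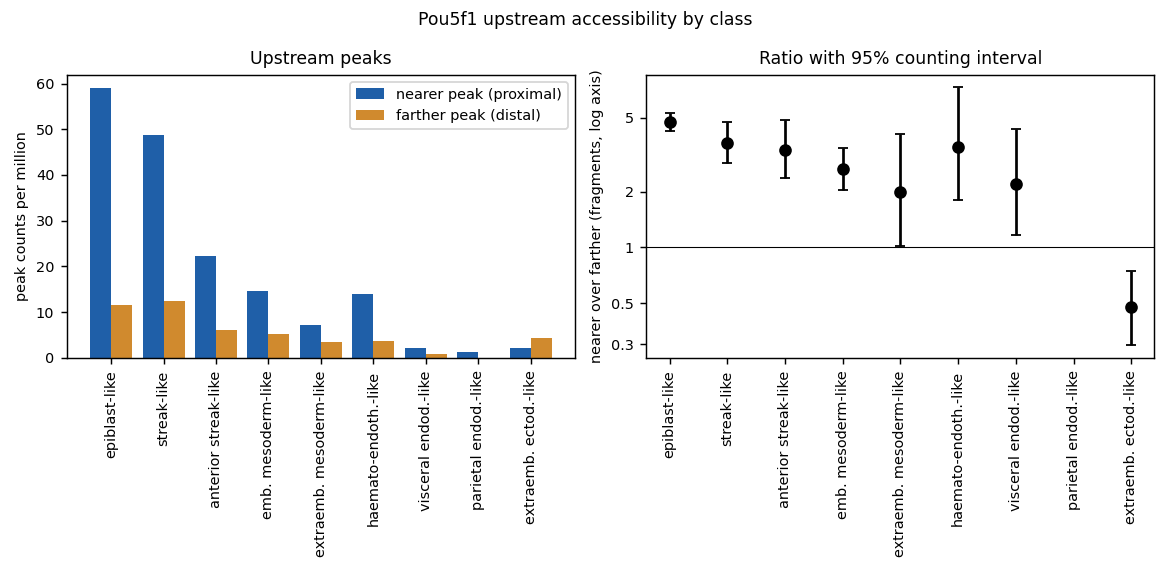
Accessibility of the nearer and farther peaks upstream of Pou5f1 by class: left, peak counts in CPM; right, the ratio of estimated fragments with its 95% counting interval on a log axis. The ratio is 4.76 in epiblast-like and 0.476 in extraembryonic ectoderm-like nuclei; parietal endoderm-like nuclei had no fragment at the farther peak and show no ratio.

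Over the 17 accessibility clusters, the peaks whose level followed the RNA most closely were those at the start of Pou5f1 (r 0.983) and 955 bp before it (0.977), the Nanog promoter (0.927), a peak 8500 bp downstream of the Nanog start (0.924) and the Utf1 promoter (0.937). These correlations are descriptions over clusters that share their nuclei. For L1td1, whose promoter peak over the start had an r of 0.237, a peak 1436 bp inside the gene followed the RNA (0.879), at 18.7 CPM in epiblast-like, 24.9 CPM in extraembryonic ectoderm-like and 6.56 CPM in visceral endoderm-like nuclei. For Sall4 the closest was a peak 42956 bp upstream (0.823), with 0.153 at its promoter. For Dppa4 it was a peak 1677 bp inside the gene (0.899), at 17.1 CPM in extraembryonic ectoderm-like and 0.444 CPM in epiblast-like nuclei. There were 27 peaks near Sall4 and 14 near Dppa4. The closest peak was picked from these by its r, while the promoter was fixed beforehand, so their r values were not chosen alike.

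Of the 171 peaks, 11 lay at the genes' own promoters, 17 at promoters of other genes only and 143 at no promoter, and 11 were within reach of both Dppa2 and Dppa4. Among the peaks with at least 50 counts, 75 of 162 were more accessible in epiblast-like than in visceral endoderm-like nuclei and 41 less, where 49.7% and 22.2% of all peaks were. Against extraembryonic ectoderm-like nuclei 55 of 163 were more and 45 less accessible (background 46.5% and 21.1%). The totals over the extraembryonic classes hold the peaks near Dppa2 and Dppa4, most of which reached 50 counts only through those classes. For these peaks the count minimum favoured the less accessible call. Against streak-like nuclei the counts were 33 and 10 of 143 (background 22.8% and 14.3%), with 16 at a 2-fold line (background 12.0%), and against embryonic mesoderm-like nuclei 58 and 20 of 153 (background 26.3% and 22.0%). The shares of the peaks near these genes that were more accessible in the epiblast were 46.3%, 33.7%, 23.1% and 37.9% in that order, and their differences from the background were not tested.

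By gene the counts over visceral endoderm-like nuclei were as follows, with no test between genes. Near Pou5f1 19 of 28 peaks were more accessible in epiblast-like than visceral endoderm-like nuclei and 2 less, and near Utf1 17 of 28 more and 3 less, where 49.7% and 22.2% of all peaks were. Near Nanog 6 of 24 were more and 11 less accessible. Near L1td1 9 of 17 were more and 3 less, near Lin28a 11 and 9 of 29, and near Sall4 10 and 8 of 27. Peaks near Dppa2, and most of those near Dppa4, reached 50 counts only through the extraembryonic classes, so no count is given for them.

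For each gene the distal peak with the highest and that with the lowest ratio of epiblast-like over pooled visceral endoderm-like and extraembryonic ectoderm-like nuclei was named. The Nanog peak highest in the epiblast was that 8500 bp downstream of the start, at chr6:122715627-122716509. It was at 19.3 CPM in epiblast-like and 21.7 CPM in streak-like nuclei, against 1.28 CPM in visceral endoderm-like and 1.54 CPM in extraembryonic ectoderm-like nuclei, a ratio of 13.8 over the pool (10.1 to 19.2). The lowest, 41210 bp upstream at chr6:122665831-122666728, was at 26.2 CPM in visceral endoderm-like and 0.658 CPM in epiblast-like nuclei. The gene start nearest to it was that of Dppa3 and not that of Nanog. Outside this rule, and singled out after their values were seen, the peaks 4822 and 3547 bp upstream of Nanog were at 49.6 and 14.5 CPM in extraembryonic ectoderm-like nuclei, against 17.3 and 5.10 CPM in epiblast-like nuclei, although Nanog RNA in that class was at 5.34 CPM.

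For Pou5f1 the highest was at chr17:35548333-35549241, 42769 bp downstream and inside the RefSeq gene Cdsn, at 15.8 CPM in epiblast-like and 10.6 CPM in streak-like nuclei and 12.2-fold the pool (8.78 to 17.5). The lowest, inside Cchcr1 18743 bp downstream, was at 4.47 CPM in extraembryonic ectoderm-like and 0.494 CPM in epiblast-like nuclei. For Utf1 the highest lay at chr7:139966749-139967551 inside the RefSeq gene Gm16201, at 17.0 CPM in epiblast-like and 8.72 CPM in streak-like nuclei and 14.1-fold the pool (10.1 to 20.3). The lowest, inside Kndc1 6298 bp upstream, was at 26.8 CPM in extraembryonic ectoderm-like and 1.43 CPM in epiblast-like nuclei, and Utf1 RNA was high in both.

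For L1td1, Lin28a and Sall4, as for Nanog, the lowest ratio was farther from 1 than the highest. The highest and lowest peaks were picked by this ratio. Those lowest peaks had 48, 7, 26 and 40 counts in epiblast-like nuclei, in the order of the genes named. They reached the count minimum only through the extraembryonic classes, so the difference in distance from 1 is no separate result. The Lin28a peak 7968 bp upstream, at chr4:134026597-134027020, was at 14.9 CPM in visceral endoderm-like and 0.115 CPM in epiblast-like nuclei, and the L1td1 peak 33021 bp upstream, inside Patj, at 35.2 and 0.790 CPM. The Sall4 peaks highest and lowest in the epiblast lay close together, 10118 and 11924 bp upstream. The former was at 17.3 CPM in epiblast-like and 1.73 CPM in extraembryonic ectoderm-like nuclei, and the latter at 0.428 and 18.0 CPM. The highest L1td1 and Lin28a peaks were 3.77-fold (2.76 to 5.24) and 4.26-fold (3.12 to 5.92) the pool.

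At the Dppa locus the lowest peak of both genes was that 1677 bp inside Dppa4, at chr16:48285022-48285906. It had 27 counts in epiblast-like and 443 in extraembryonic ectoderm-like nuclei. The highest of Dppa4, 49709 bp upstream and so just inside the 50 kb limit, was at 2.29 CPM in epiblast-like nuclei and 20.9-fold the pool (6.87 to 104). That peak had 139 counts in epiblast-like, 2 in visceral endoderm-like and 4 in extraembryonic ectoderm-like nuclei. It reached 50 counts only through the epiblast and was picked by this ratio, so the size of the ratio is no separate result. The nearest peak left out by the limit, 50822 bp from Lin28a, was at 28.7 CPM in epiblast-like and 31.3 CPM in visceral endoderm-like nuclei. The highest of Dppa2 was at 0.280 CPM in epiblast-like and 1.14 CPM in visceral endoderm-like nuclei.

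**Figure D4:**
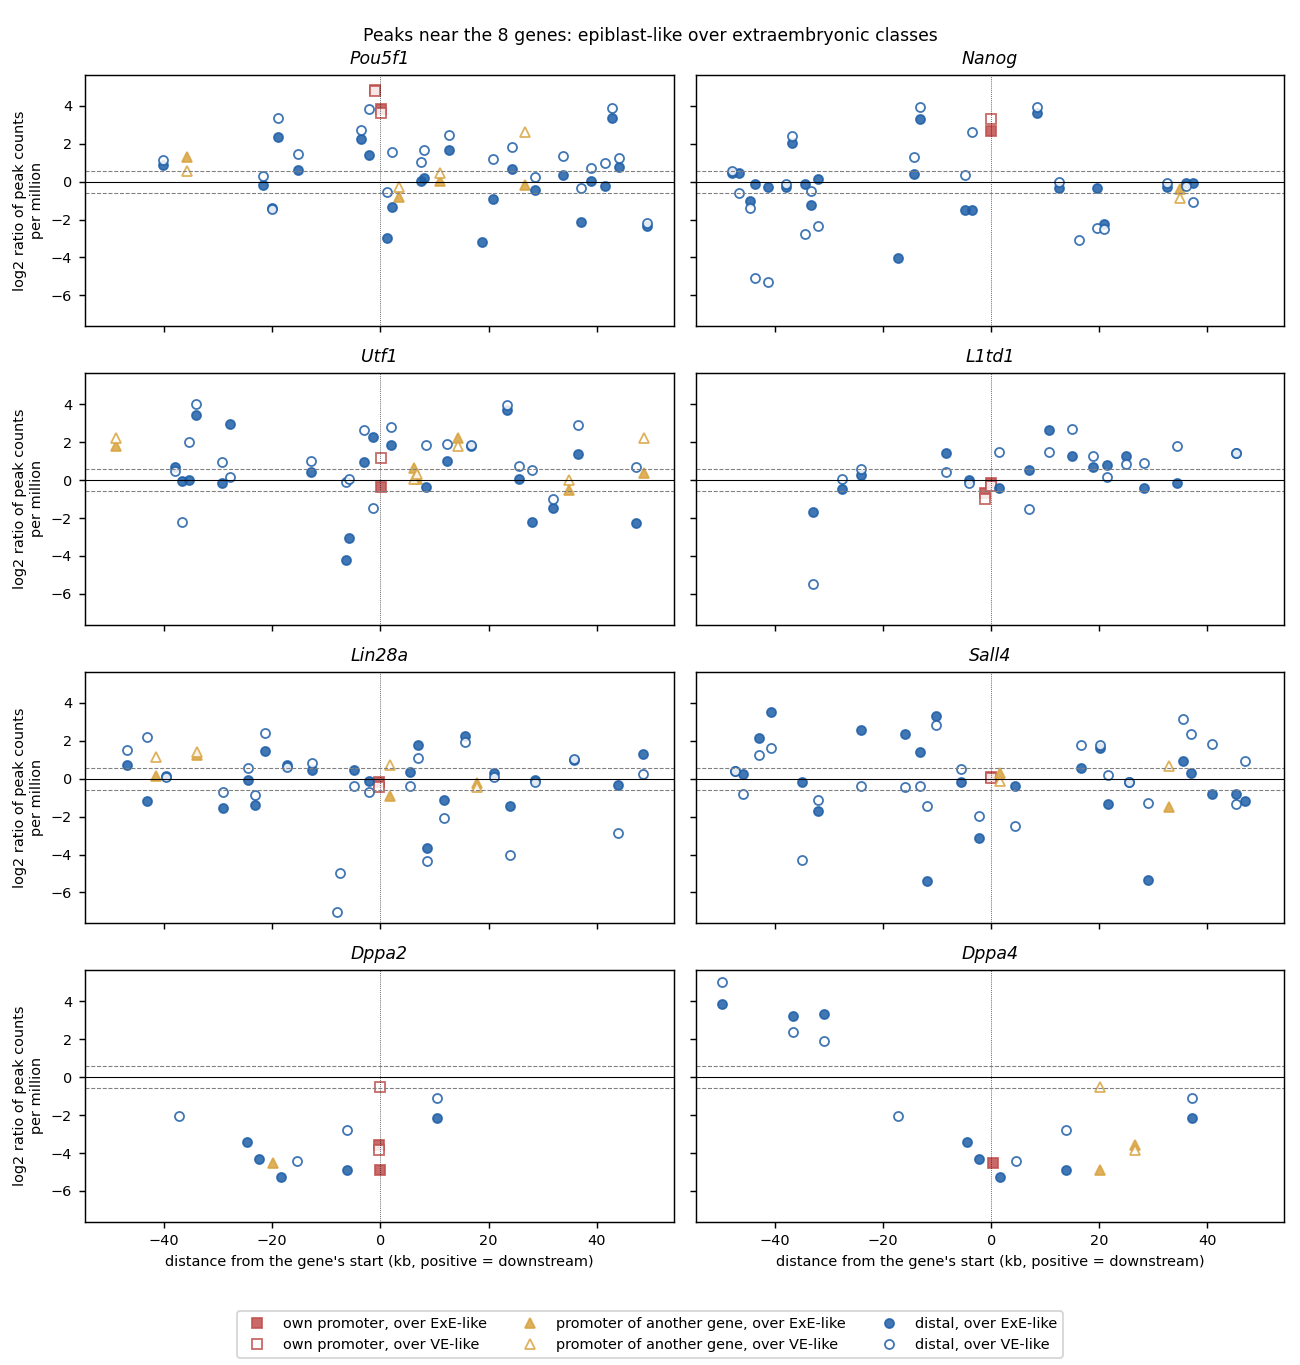
Peaks near each gene with at least 50 counts: log2 ratio of peak CPM, epiblast-like over extraembryonic ectoderm-like (filled) or visceral endoderm-like (open) nuclei, against distance from the gene's start in kb. Dashed lines mark 1.5-fold; near Pou5f1 a promoter peak (square), that 955 bp before the start, lies highest, and peaks with under 50 counts, such as those near Dppa2 that are low in both classes, are not drawn.

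Other genes of the pluripotency network were read from 3 lists of RNA. Of 16 naive network genes, 15 had at least 50 UMIs in epiblast-like and extraembryonic ectoderm-like nuclei, and 6 were higher in the epiblast-like and 7 in the extraembryonic ectoderm-like class (median log2 -0.14, against 0.07 over all genes), where 29.9% and 19.3% of all genes were. The 7 were Esrrb, an orphan nuclear receptor, at 4.31 CPM in epiblast-like and 191 CPM in extraembryonic ectoderm-like nuclei, Zfp42 (Rex1) at 7.86 and 174 CPM, Nr0b1 (Dax1) at 5.06 and 110 CPM, Klf5 at 18.3 and 211 CPM, Dnmt3l at 6.34 and 91.6 CPM, Tfcp2l1 at 4.54 and 39.7 CPM, and Klf2 at 18.6 and 39.8 CPM. Dppa2 and Dppa4 were highest in the same class, and several of these genes are also known as factors of trophoblast stem cells. Naive genes higher in the epiblast-like class included Zscan10, at 183 and 33.8 CPM, and Fgf4, at 4.77 and 0.491 CPM. Against streak-like nuclei 3 naive genes were higher in the epiblast, all of them scarce: Esrrb, Fgf4 and Gdf3, the last on 66 and 14 UMIs with an interval of 0.931 to 3.23 that holds 1 (background 7.99%).

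Of 15 formative and primed genes, 11 were higher in epiblast-like than in extraembryonic ectoderm-like nuclei and none lower (median log2 1.11, against 0.07; background 29.9% and 19.3%). Lin28b, the paralogue of Lin28a, was at 706 and 31.6 CPM, a 22.3-fold ratio (20.4 to 24.4), while Lin28a itself was at 118 and 104 CPM. Foxd3, a forkhead factor, was at 60.7 and 5.22 CPM and Nodal at 32.2 and 5.22 CPM. Against streak-like nuclei 1 was higher in the epiblast, Foxd3 (2.38-fold, 2.11 to 2.69; background 7.99%), and 2 were higher in the streak (background 4.8%): Tdgf1, the Nodal co-receptor, at 276 and 106 CPM in the streak-like and epiblast-like class, and Nodal at 53.9 and 32.2 CPM. Nanog was also higher in the streak.

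Against visceral endoderm-like nuclei, 6 of 15 naive and 8 of 15 formative and primed genes were higher in the epiblast and 4 and 1 lower (background 31.9% and 22.7%). Against embryonic mesoderm-like nuclei 3 of 16 naive and 4 of 15 formative and primed genes were higher and 5 and 4 lower (background 16.9% and 11.8%). Of 12 ubiquitous cofactors such as Rif1 and Arid1a, 4 were higher and 2 lower in epiblast-like than in extraembryonic ectoderm-like nuclei, 5 and 1 against visceral endoderm-like nuclei (the same backgrounds), and none passed the line either way against streak-like nuclei.

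**Figure D5:**
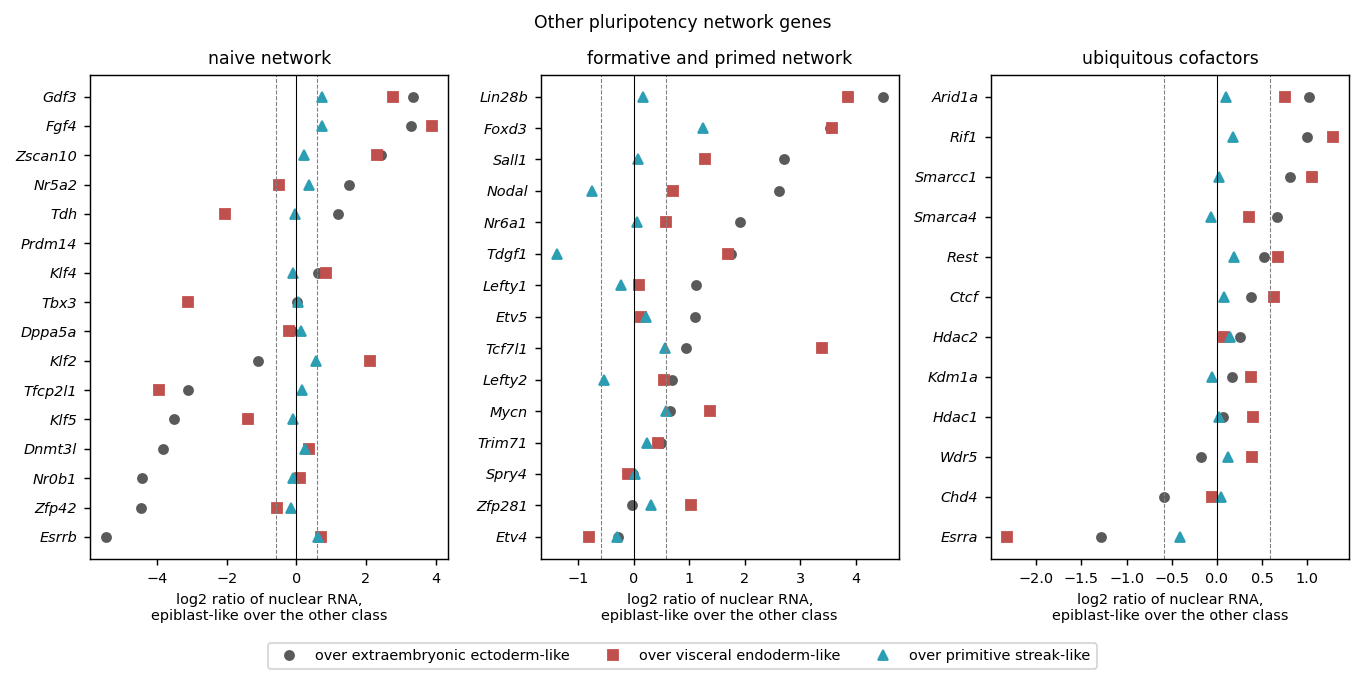
Log2 ratio of nuclear RNA, epiblast-like over extraembryonic ectoderm-like (circles), visceral endoderm-like (squares) or streak-like (triangles) nuclei, for the 3 network lists, genes with at least 50 UMIs in a comparison; dashed lines mark 1.5-fold. The naive list runs from Esrrb, at 191 CPM in extraembryonic ectoderm-like nuclei, to genes high in the epiblast, while none of the formative and primed list passes the line on the extraembryonic ectoderm-like side.

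Among 11364 genes with a mean of at least 5 CPM over the 17 clusters, the 3 whose RNA pattern was most like each member's were named by Pearson r of log2(CPM + 1). For Pou5f1 they were Celf4, St8sia3 and Mfap2 (0.981 to 0.976), and for Nanog St6gal2, Ina and Magi2 (0.961 to 0.948). Utf1 was most like Pou3f1, Igsf8 and Cbs (0.949 to 0.933), and L1td1 like Mkrn1, Zfp462 and Slc35f2 (0.961 to 0.948). Lin28a was most like Fermt1, Cpn1 and Selenop (0.947 to 0.921), Sall4 like Ptprt, Rgma and Cc2d2a (0.923 to 0.898). Dppa2 was most like Cpne3, Cnih4 and Akap17b (0.942 to 0.922), and Dppa4 like Gsto1, Zfp42 and S100a6 (0.983 to 0.972), of which Zfp42 is a naive network gene. No other member was among the genes ranked here, since members were left out, but Pou5f1 with Nanog, Utf1 with L1td1 and Dppa2 with Dppa4 (0.868) were the closest pairs within the set.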

How the data were processed

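Nuclear RNA and accessibility were measured in the same nuclei of pooled E7.0 mouse embryos. The authors deposited whole-number counts, not normalized, per gene (UMIs) and per peak, made with Cell Ranger ARC 2.0.0 on mm10, per the submitters' processing notes. Of nonzero peak values 86.6% were even, so accessibility intervals were computed on fragments estimated by dividing each count by 2 and rounding up. No column of per-sample values was left unused.

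Kept nuclei had 1000 or more UMIs, 500 or more genes, 1000 or more peak counts and no more than 20% of UMIs from mitochondrial genes, and 1100 Scrublet doublet calls were removed. With scanpy 1.11.5 and leidenalg 0.10.2, 2000 variable genes or TF-IDF weighted peaks gave 30 components, graphs of 15 neighbours, and clusters at resolution 2 (RNA, 32 clusters) or 1 (accessibility, 17 clusters). A cluster took the name of the marker list with the highest mean log2 ratio, if at least 0.5 with 3 markers raised 1.5-fold on 50 UMIs and no rival list; this scoring rule was chosen with the data in view. Members and lists were chosen with earlier results of these data known. A further gene planned for the formative and primed list was left out of it and is not reported here.

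CPM are a class's counts scaled to a common total. Ratios carry exact conditional 95% intervals, and shares exact Clopper-Pearson intervals, for counting error only; the method was tested on simulated data. Calls were ratios of at least 1.5 on at least 50 counts. The text names all members, their promoter peaks, the distal peaks with the highest and lowest ratio, and the 3 genes most like each. Gene positions are the files' own, counted from 1, and strand was inferred from RefSeq. Alternatives changed the call line, count minimum, doublets, depth, resolution, clustering assay, variable genes, size factor, fragments, promoter width and peak distance.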

Additional observations from a re-analysis of the deposited data

How the results depend on the processing

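Of the 84 recomputed counts of called members or peaks, 73 stayed within 1.5 times the reported count. RNA calls over streak-like nuclei went from 1 to 2 members at accessibility resolution 2 and in classes made from RNA. Promoter calls over streak-like nuclei, 1 as reported, were 0 at 2-fold, with doublet calls kept, in classes from accessibility and with estimated fragments, and 2 with no count minimum; they rest on Dppa2 with 71 and 8 counts. The Dppa4 promoter ratio over streak-like nuclei, on 17 and 2 counts, changed sign in classes from accessibility (log2 -0.06, against 0.67). Peak calls over streak-like nuclei were 33 as reported and 16 at 2-fold. Counting only the 53 peaks within 10 kb gave 18 of 47 tested over visceral endoderm-like, 13 of 48 over extraembryonic ectoderm-like and 8 of 41 over streak-like nuclei, a smaller set by construction, where 49.7%, 46.5% and 22.8% of all peaks were called. Of 464 recomputed ratios of single members, 382 stayed inside a counting interval of the reported ratio and 81 moved outside it. The other 1, a ratio reported at 1.5-fold or beyond, changed sign, and sign changes of smaller ratios were not counted apart. For promoters this interval was computed on peak counts and not on estimated fragments, so it is narrower than the one given above. Changing the call line or the count minimum leaves a ratio as it was, so those recomputations stayed inside by construction. RNA clusters at resolution 1 gave no streak-like class, so those 2 results were not run. No paired analysis was possible because each assay had 1 library. Depth limits Dppa2 and Dppa4 most, with 50 and 135 UMIs in 3096 epiblast-like nuclei.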

Other observations

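Values outside the comparisons came from the 5 unnamed accessibility clusters. A cluster of 1245 nuclei with a median of 2250 UMIs had Pou5f1 at 169 CPM (158 to 180) and Nanog at 43.2 CPM (38.0 to 48.9). A cluster of 651 nuclei led by Unc5c, Fendrr and Pcsk5 had Sall4 at 357 CPM (344 to 371), Pou5f1 at 64.3 CPM and L1td1 at 42.6 CPM, the lowest L1td1 level of the 17 clusters. The Sfrp5 cluster, which had the highest Lin28a level, also had Sall4 at 400.3 CPM (386 to 416), while its Pou5f1 level was 47.1 CPM. A cluster of 183 nuclei with a median of 6796 UMIs had Utf1 at 251 CPM and Dppa4 at 22.2 CPM (15.3 to 31.2).

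In the extraembryonic mesoderm-like class, which the RNA clusters gave (392 nuclei) and the 17 accessibility clusters used here did not, Sall4 was at 336 CPM, Lin28a at 111 CPM, Pou5f1 at 65.6 CPM and Nanog at 17.0 CPM. Its Sall4 promoter was at 35.4 CPM (29.6 to 42.1), the highest of the named classes. That interval overlaps those of other classes, such as embryonic mesoderm-like nuclei at 33.4 CPM (30.5 to 36.4). The 5 germ cell genes (Nanos3, Dnd1, Prdm1, Dppa3 and Ifitm3) summed to 17.4 CPM in the streak-like class, where Nanog was highest, and to 20.03 CPM in the epiblast-like class. The sums were 58.2 CPM in the embryonic mesoderm-like, 102.5 CPM in the anterior streak-like and 106 CPM in the visceral endoderm-like class. Of the 5 genes only 2, 2 and 1 were raised 1.5-fold there, so these sums do not show germ cells.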
